A study of Mus musculus with 9 samples.

Results

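The genes described here are 10 neighbours of *Shank3* on mouse chromosome 15, chosen by name for their position: *Arsa*, *Mapk8ip2*, *Chkb*, *Cpt1b*, *Sbf1*, *Ppp6r2*, *Plxnb2*, *Mapk12*, *Hdac10* and *Tubgcp6*. They are not all of its nearest genes. All 10 were found among the 15464 genes with values. Striatal RNA was sequenced from 9 male mice of 10 to 12 weeks in a C57BL/6J background, with 1 library per mouse and 3 mice per genotype. The groups were wild-type mice (WT), mice heterozygous for the *Shank3B* allele (HET) and homozygous knock-out mice (KO). The allele removes an internal block of *Shank3* exons in every cell and leaves the flanking exons in place, and the WT, HET and KO mice were littermates. The comparisons ask whether the targeted allele goes with a local change in the genes beside it.

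*Shank3* encodes a scaffold of the excitatory postsynapse. Its neighbours sit with it in a compact, gene-rich segment that is conserved in order with the human region lost in Phelan-McDermid syndrome, so that patients with larger deletions also lose 1 copy of several of these genes. A gene next to an edited locus can be read for effects of the edit on local transcription, or for sequence that was carried along with the targeted allele from the founder cells. The 10 genes have unrelated functions, in kinase signalling, lipid and lysosomal metabolism, phosphatase regulation, semaphorin reception, microtubule nucleation and deacetylation.

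Values are normalized counts, that is, gene-level read estimates that the authors divided by size factors, and they summed to between 30830020 and 33790296 per library. The depth in reads is unknown. Genes reaching 10 normalized counts in 3 or more libraries, 14239 in number, were tested with limma on log2(normalized count + 1), a scale that understates the change of low genes. The first principal component held 33.6% of the variance, and on it HET replicate 3 and KO replicate 3 lay far from the rest. The medium spiny neuron markers fixed for this tissue were all listed (10 of 10) and summed to 76037 to 150517 in WT, 104548 to 134857 in HET and 66431 to 112609 in KO. WT replicate 3 (76037) was far below the other WT libraries (134186 and 150517), and KO replicate 3 was the lowest of all. Both had the highest summed cortical neuron markers (49582 and 53446). The part of such differences in tissue content in the gene values was not tested. The summed levels of the 9 marker lists overlapped between each mutant genotype and WT. Between KO and HET 8 of the 9 overlapped, the exception being the blood markers (2 of 4 listed), at 1765 to 2373 in KO and 2583 to 3155 in HET, and their part in the KO and HET values was not tested. *Shank3* itself (chromosome 15, 89499623 to 89560261, plus strand, GRCm38) had 7209, 8812 and 6043 normalized counts in WT, 7575, 7098 and 8050 in HET and 10237, 10798 and 10578 in KO. This value sums exons inside and outside the deleted part, so it does not check the genotype labels.

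The 10 neighbours span 379 kb, from *Tubgcp6* at 89098357 to the end of *Arsa* at 89477425, and all lie before the start of *Shank3*. *Arsa* ends 22.2 kb from it and *Tubgcp6* 377 kb from it. Between *Tubgcp6* and *Shank3* the annotation holds 23 protein-coding genes, of which 18 were analysed here, the 10 neighbours and 8 others. *Arsa*, *Chkb*, *Cpt1b*, *Sbf1*, *Plxnb2*, *Mapk12*, *Hdac10* and *Tubgcp6* are transcribed from the minus strand and *Mapk8ip2* and *Ppp6r2* from the plus strand, which is that of *Shank3*. Several of them touch another gene. *Tubgcp6* overlaps *Selenoo* on the opposite strand by 1984 bp, *Arsa* overlaps the antisense gene *C230037L18Rik* by 1190 bp, and *Ppp6r2* overlaps the lincRNA *Gm26798* by 3454 bp. *Chkb* and *Cpt1b* lie 496 bp apart on the same strand and are joined by the read-through gene *Gm44502*. The kit keeps strand, but the strand setting of the counting was not stated, so reads in stretches shared between opposite strands are uncertain. *Gm44502* lies on the same strand as *Cpt1b* and *Chkb*, overlaps them by 9459 bp and 3337 bp, and had no values. Strand could not separate its reads from theirs, whatever the setting.

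Most of the neighbours have GC-rich starts. RefSeq windows (GRCm38.p6) of the 250 bases before the start were found for 8 of the 10 genes, 9 windows in all because *Plxnb2* has 2. Their median GC content was 63.6%, against 52.4% over 32851 mouse windows, and 8 of the 9 had more CpG dinucleotides than the median window, which had 6. The GC box (GGGCGG, or CCGCCC on the other strand) was present in 8 of 9 windows, against 32.7% of all windows, and the CCAAT box (CCAAT, or ATTGG on the other strand) in 2 of 9, against 33.8%. Windows were searched on both strands and the letters of the motifs do not overlap each other. The window of *Shank3* had 31 CpG and a GC content of 82.4%. The starts of the pair of the 10 nearest to *Shank3*, of the neighbour with the highest KO values relative to WT and of the interspersed gene *Dennd6b* are given 5′ to 3′ on the gene's strand, with both motifs in capitals.
Arsa (chr15:89477425-89477674, minus strand): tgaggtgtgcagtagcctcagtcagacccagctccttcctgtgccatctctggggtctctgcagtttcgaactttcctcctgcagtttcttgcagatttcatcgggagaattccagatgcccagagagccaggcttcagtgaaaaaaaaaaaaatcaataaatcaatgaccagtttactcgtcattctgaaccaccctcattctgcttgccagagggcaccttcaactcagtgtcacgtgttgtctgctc
Mapk8ip2 (chr15:89453661-89453910, plus strand): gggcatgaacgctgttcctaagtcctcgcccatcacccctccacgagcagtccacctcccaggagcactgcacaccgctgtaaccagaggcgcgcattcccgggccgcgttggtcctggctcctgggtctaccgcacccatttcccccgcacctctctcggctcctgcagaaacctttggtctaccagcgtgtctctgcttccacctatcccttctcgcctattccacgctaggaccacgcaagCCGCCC
Sbf1 (chr15:89315312-89315561, minus strand): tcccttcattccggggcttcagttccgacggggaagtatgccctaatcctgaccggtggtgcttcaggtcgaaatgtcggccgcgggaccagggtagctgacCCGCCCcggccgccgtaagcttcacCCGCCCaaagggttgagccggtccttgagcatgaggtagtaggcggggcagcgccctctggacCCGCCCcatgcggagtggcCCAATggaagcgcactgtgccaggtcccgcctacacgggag
Dennd6b (chr15:89196475-89196724, minus strand): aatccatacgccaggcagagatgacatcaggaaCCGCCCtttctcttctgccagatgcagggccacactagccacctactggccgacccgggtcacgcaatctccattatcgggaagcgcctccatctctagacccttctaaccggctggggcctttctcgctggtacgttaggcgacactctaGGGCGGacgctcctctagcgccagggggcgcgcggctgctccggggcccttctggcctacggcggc
The *Arsa* window stood apart from the others, with 4 CpG, a GC content of 48.4% and no match to either motif. Of its 250 bases, 133 lie in an exon of the antisense gene *C230037L18Rik*. All 250 bases of the *Chkb* window lie in an exon of *C730034F03Rik*, and 94 of the *Tubgcp6* window in an exon of *Hdac10*. *Mapk8ip2* had 17 CpG and 1 GC box, *Sbf1* 21 CpG, 3 GC boxes and 1 CCAAT box, and *Dennd6b* 20 CpG and 2 GC boxes. A match is only a match of letters, and no protein binding was measured.

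The neighbours differed widely in level although they share a segment. Per kb of exon, the mean over the 9 libraries ran from 17.3 normalized counts for *Cpt1b* to 1727 for *Mapk8ip2*, a 99.8-fold range that covers percentiles 12.8 to 94.9 of all genes tested. *Mapk8ip2* (1574 to 1952 per kb) and *Sbf1* (812 to 1291) were the highest, and their ranges did not overlap. *Plxnb2* followed with a mean of 327 per kb, then *Arsa* with 279, *Ppp6r2* with 232 and *Chkb* with 229. Among these 4, the libraries of each gene overlapped with those of the next in the order, and *Chkb* stood above *Hdac10* (162) without overlap. *Hdac10* and *Tubgcp6* (142) overlapped. *Mapk12* had 46.5 per kb, and *Cpt1b* stood below it without overlap. *Cpt1b* encodes the muscle form of carnitine palmitoyltransferase and *Mapk12* a p38 kinase best known from muscle, and they were the lowest of the set. Whether reads of *Cpt1b* and *Chkb* were given to the read-through gene *Gm44502* is not known, which limits their levels and log2FC values.

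**Figure D1:**
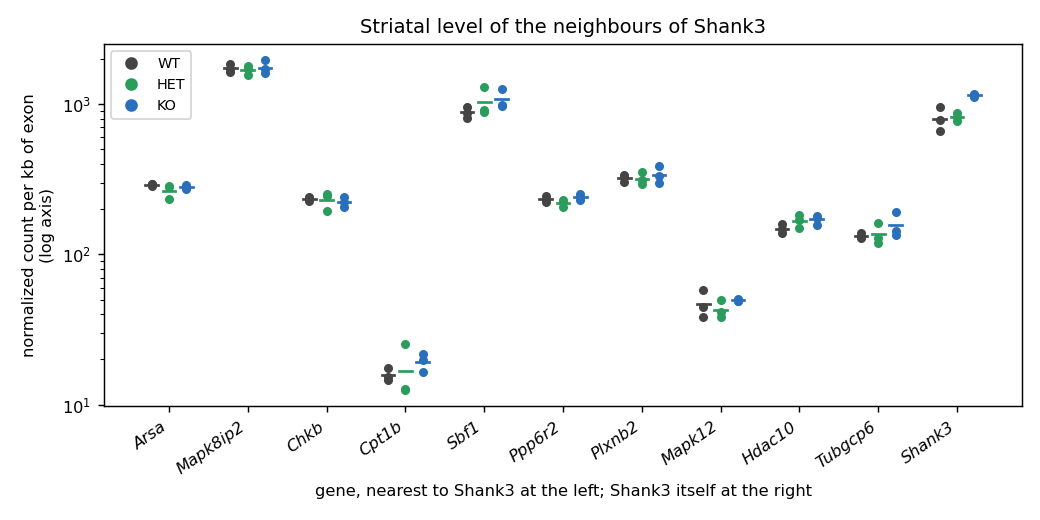
Normalized counts per kb of exon (log axis) of the 10 neighbours and *Shank3*, with points for the 3 libraries of each genotype and a bar for their mean. *Mapk8ip2* and *Sbf1* lie near or above the level of *Shank3*, and *Cpt1b* at 17.3 per kb is the lowest.

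None of the 10 neighbours passed the test in the KO or HET striatum. In KO, 0 of 10 passed an adjusted p of 0.05 (limma, Benjamini-Hochberg over the 14239 genes), where 0 genes did, and 0 of 10 had an unadjusted p under 0.05, against 0.822% of all genes tested. The HET striatum gave 0 of 10 at both thresholds, against a background of 0 genes and 1.11%. Between KO and HET the counts were again 0 and 0 of 10, against 1.31% at the unadjusted threshold. The slope over intact *Shank3* alleles also gave 0 and 0, against 0.969% at the unadjusted threshold. At these shares few or none of 10 genes would be counted, so the counts of 0 do not set the neighbours apart. Each share is also below the fraction of 0.05 that evenly spread p values would give. The libraries of 1 of the 10 did not overlap between KO and WT (*Sbf1*), against 4.54% of all genes, those of 1 between HET and WT (*Arsa*), against 4.45%, and those of 1 between KO and HET (*Ppp6r2*), against 4.45%. The adjusted p of the neighbours was 0.999 or above in KO, HET and KO against HET. Their median log2FC was 0.079 in KO, −0.030 in HET and 0.081 between KO and HET, against 0.0047, −0.0027 and −0.00099 over all genes tested. In KO 8 of the 10 had a positive log2FC, against 51.6% of all genes, in HET 4 of the 10, against 49.3%, and between KO and HET 9 of the 10, against 49.6%. The median absolute log2FC of the 10 was 0.080 in KO and 0.060 in HET, beside 0.079 and 0.088 over all genes. KO and HET are set against the same 3 WT libraries, and KO against HET uses the KO and HET libraries again. The authors' DESeq2 test on counts, with p values corrected by fdrtool before adjustment, did call genes in KO and in HET. The 0 calls by limma therefore do not show that nothing differed.

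**Figure D2:**
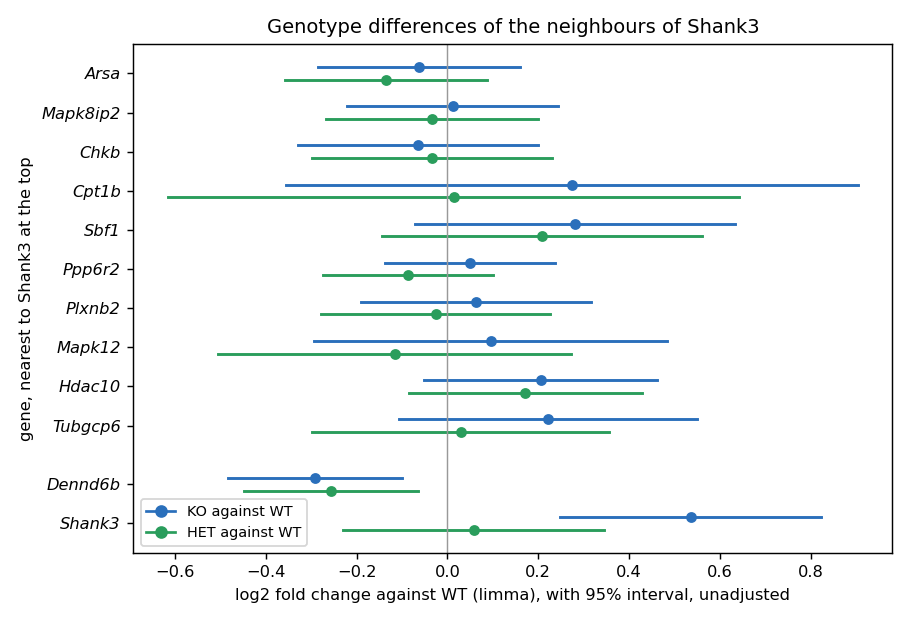
log2FC against WT with its unadjusted 95% interval from limma for the 10 neighbours, *Dennd6b* and *Shank3*, KO in blue and HET in green. The 20 intervals of the neighbours all include 0, while both intervals of *Dennd6b* lie below 0.

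The intervals bound what could have gone unseen. In KO the 95% intervals of the 10 genes (limma, not adjusted) ran from 0.782-fold to 1.87-fold of WT, both ends set by *Cpt1b*. In HET they ran from 0.653-fold to 1.56-fold, again set by *Cpt1b*. The standard error of a neighbour's log2FC ranged from 0.08 for *Ppp6r2* to 0.28 for *Cpt1b*, and 6 of the 10 varied less between mice of a genotype than the median gene, whose within-genotype SD was 0.19 on the log2 scale.

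The kinase signalling genes showed no genotype difference beyond the spread between mice. *Mapk8ip2* encodes a scaffold that holds the kinases of the JNK cascade together and is enriched in brain. Its libraries had 9301, 10527 and 9822 normalized counts in WT, 8970, 9753 and 10251 in HET and 9121, 9698 and 11126 in KO. The genotypes overlapped throughout, with a log2FC of 0.01 (SE 0.10) in KO and −0.03 (SE 0.10) in HET. The sign in KO rested on KO replicate 3, without which the log2FC was −0.07. The interval of the KO difference was 0.857-fold to 1.18-fold. *Mapk12*, the p38 gamma kinase, had 171, 146 and 219 normalized counts in WT, 157, 188 and 145 in HET and 185, 188 and 192 in KO. The 3 KO libraries were close together and lay inside the WT range. The log2FC was 0.09 (SE 0.17) in KO, or −0.04 without WT replicate 2, and −0.12 (SE 0.17) in HET, or 0.04 without WT replicate 3.

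The KO libraries of the metabolic genes overlapped with those of WT. *Arsa* encodes arylsulfatase A, the lysosomal enzyme that degrades myelin sulfatide. It had 1055, 1077 and 1080 normalized counts in WT, 1030, 1051 and 854 in HET and 1013, 1069 and 995 in KO. All 3 HET libraries were below the lowest WT library, which held for 2.19% of genes, and HET replicate 3 was the lowest of all. The log2FC in HET was −0.14 (SE 0.10; two-sided exact permutation test, p = 0.1, the lowest value 3 against 3 can give), and −0.04 without HET replicate 3. In KO it was −0.06 (SE 0.10), with 1 of 3 libraries inside the WT range. The summed level of the oligodendrocyte markers, whose cells make the sulfatide, was 216710 to 245573 in HET and 154380 to 253632 in WT, and its part in the *Arsa* values was not tested.

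*Chkb* encodes choline kinase beta, at the first step of phosphatidylcholine synthesis. Its 3 WT libraries had 736, 689 and 724 normalized counts, the HET libraries 743, 772 and 597 and the KO libraries 740, 680 and 637. The lowest value was again that of HET replicate 3. The log2FC was −0.07 (SE 0.12) in KO and −0.03 (SE 0.12) in HET, the latter 0.08 without HET replicate 3. *Cpt1b*, which brings long-chain fatty acids into mitochondria for oxidation, had 49.1, 51.3 and 59.6 normalized counts in WT, 85.7, 42.2 and 42.6 in HET and 55.2, 66.8 and 72.7 in KO. A single library, HET replicate 1, was far above the rest. The log2FC was 0.27 (SE 0.28) in KO and 0.01 (SE 0.28) in HET, or −0.32 in HET without that library. Between KO and HET it was 0.26 (SE 0.28), and without HET replicate 1 it was 0.59 (unadjusted p = 0.028, adjusted p = 1 from limma). The summed muscle markers were highest in HET replicate 3 (1187) and KO replicate 3 (1031), where *Cpt1b* had 42.6 and 72.7 normalized counts.

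*Sbf1* was the neighbour with the largest KO difference and the only one whose KO and WT libraries did not overlap. It encodes a catalytically inactive member of the myotubularin phosphoinositide phosphatases. The WT libraries had 5545, 5964 and 6526 normalized counts, the HET libraries 6033, 6254 and 8813 and the KO libraries 6659, 6732 and 8638. The 3 KO libraries were above the 3 WT libraries, as for 2.02% of genes, and 2 of the 3 HET libraries lay inside the WT range. The log2FC was 0.28 (SE 0.16, unadjusted p = 0.107 from limma) in KO and 0.21 (SE 0.16) in HET, and the exact permutation test in KO gave p = 0.1. Both values moved with the third libraries. Without KO replicate 3 the KO log2FC was 0.16, and without HET replicate 3 the HET log2FC was 0.03. With HET replicate 3 left out of the fit, the KO log2FC stayed at 0.28 and its unadjusted p was 0.0374 (limma). That library enters the KO comparison only through the shared estimate of the spread. *Ppp6r2*, a regulatory subunit of protein phosphatase 6, had 2101, 2289 and 2154 normalized counts in WT, 2098, 2142 and 1923 in HET and 2163, 2364 and 2246 in KO. The KO libraries were above the HET libraries without overlap, as for 2.25% of genes, while both genotypes overlapped with WT. The log2FC between KO and HET was 0.14 (SE 0.08, unadjusted p = 0.135 from limma), with an interval of 0.966-fold to 1.25-fold.

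*Plxnb2*, the plexin receptor for class 4 semaphorins, had 2329, 2535 and 2618 normalized counts in WT, 2254, 2397 and 2709 in HET and 2316, 2984 and 2549 in KO. The genotypes overlapped, and the single high library was KO replicate 2. The log2FC was 0.06 (SE 0.11) in KO, or −0.04 without that library, and −0.03 (SE 0.11) in HET, or 0.03 without HET replicate 1.

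The 2 genes at the far end of the set overlapped between KO and WT. *Tubgcp6*, a component of the gamma-tubulin ring complex that nucleates microtubules, had 1483, 1594 and 1492 normalized counts in WT, 1369, 1477 and 1851 in HET and 1650, 1551 and 2185 in KO. The highest libraries were again KO replicate 3 and HET replicate 3. The log2FC was 0.22 (SE 0.15) in KO and 0.03 (SE 0.15) in HET, and 0.07 and −0.10 without the third library of each genotype. Between KO and HET it was 0.19, or 0.32 without HET replicate 3 (unadjusted p = 0.0483 from limma). *Hdac10*, which encodes a deacetylase acting on polyamines, had 466, 495 and 541 normalized counts in WT, 571, 507 and 616 in HET and 589, 531 and 610 in KO. In each mutant genotype 2 of the 3 libraries were above the highest WT library. The log2FC was 0.20 (SE 0.12, unadjusted p = 0.106 from limma) in KO and 0.17 (SE 0.12) in HET. Over fits that each lacked a library, the KO value stayed between 0.15 and 0.26.

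**Figure D3:**
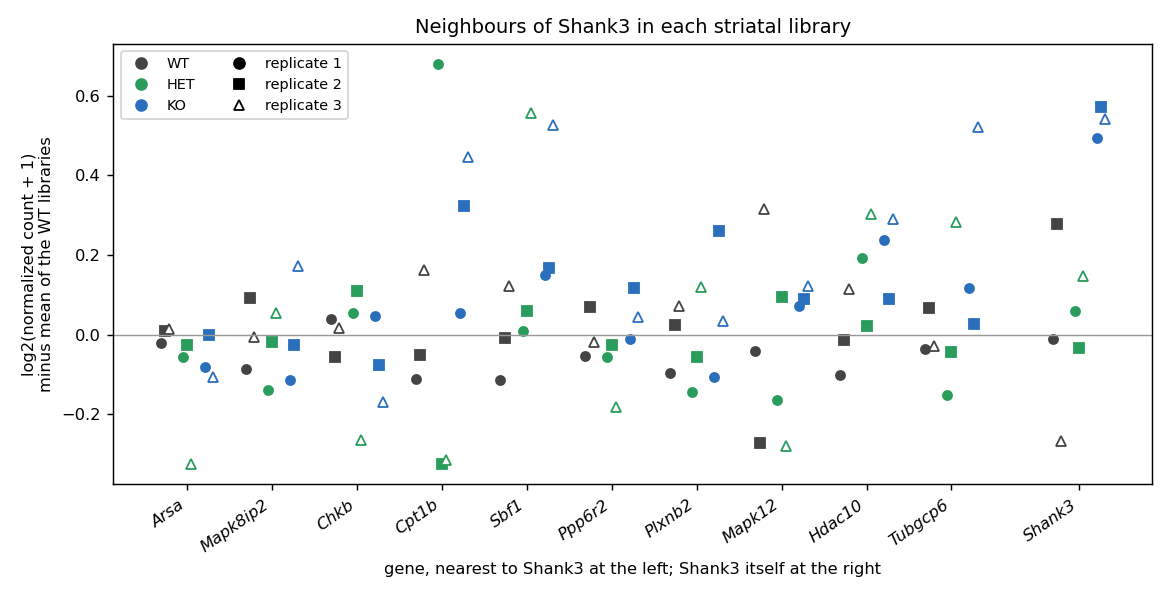
log2(normalized count + 1) of each neighbour and of *Shank3* in the 9 libraries, minus the mean of the WT libraries. The third libraries of HET and KO (open triangles) are the 2 highest for *Sbf1* and *Tubgcp6*, and HET replicate 3 is the lowest for *Arsa*, *Chkb*, *Ppp6r2* and, narrowly, *Mapk12*.

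The third libraries therefore weighed on the neighbours, in both directions. HET replicate 3 was the highest of the 9 libraries for 2 of the 10 genes and the lowest for 4, and KO replicate 3 the highest for 2 and the lowest for 0. Set against the other libraries of its genotype, HET replicate 3 was higher by 0.52 for *Sbf1* and 0.38 for *Tubgcp6* on the log2 scale, and lower by values of −0.34 for *Chkb* and −0.29 for *Arsa*. In KO replicate 3 the same differences were 0.37, 0.45, −0.15 and −0.06. Both libraries also varied with GC content. The median difference ran from −0.08 in the decile of genes with the lowest GC content to 0.13 in the highest decile for HET replicate 3, and from −0.09 to 0.11 for KO replicate 3. The neighbours' longest transcripts had 53.9% to 58.7% GC, percentiles 70.3 to 91.9 of all genes, where genes of like GC content were higher in both libraries by the decile median. In HET replicate 3, *Cpt1b*, *Chkb*, *Arsa*, *Mapk12* and *Ppp6r2* were lower instead, 5 of the 10, with *Cpt1b* furthest at −0.49. That *Cpt1b* value rests on the high HET replicate 1 (85.7), since HET replicate 3 (42.6) was just above HET replicate 2 (42.2). In KO replicate 3, *Chkb*, *Arsa*, *Plxnb2* and *Ppp6r2* were lower, 4 of the 10. With both libraries left out, a setting chosen after seeing the values, 0 of the 10 had an unadjusted p under 0.05 in KO, HET or KO against HET. The median log2FC was then 0.075 in KO and −0.037 in HET.

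The 8 other genes interspersed with the neighbours were *Mapk11*, *Dennd6b*, *Lmf2*, *Ncaph2*, *Sco2*, *Tymp*, *Odf3b* and *Klhdc7b*. *Dennd6b*, which lies between *Plxnb2* and *Ppp6r2* and encodes a DENN-domain protein of the family that activates Rab GTPases, had the lowest unadjusted p of the segment after *Shank3*. It had 2427, 2531 and 2593 normalized counts in WT, 2239, 2172 and 1919 in HET and 2079, 2095 and 1997 in KO. Every mutant library was below every WT library, as for 2.51% of genes in KO and 2.19% in HET. The log2FC was −0.29 (SE 0.09, unadjusted p = 0.00691) in KO and −0.26 (SE 0.09, unadjusted p = 0.0136) in HET, and the adjusted p was 0.999 in both (limma with Benjamini-Hochberg adjustment). KO and HET overlapped, with a log2FC of −0.03 (SE 0.09) between them. Without HET replicate 3 and KO replicate 3 the values were −0.27 and −0.19. The genes on either side of it, *Plxnb2* and *Ppp6r2*, had log2FC values of 0.06 and 0.05 in KO.

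*Klhdc7b*, a kelch-domain gene, was near the filter, with 4.28, 13.1 and 6.64 normalized counts in WT, 17.5, 14.8 and 7.74 in HET and 15.4, 16.5 and 16.2 in KO. The KO libraries were above the WT libraries, as for 2.02% of genes, and 1 of the 3 WT libraries reached a value of 10. The log2FC was 1.03 (SE 0.44, unadjusted p = 0.0408, adjusted p = 0.999 from limma) in KO and 0.72 (SE 0.44) in HET. The other 6 interspersed genes had log2FC values in KO of 0.00 for *Mapk11*, 0.09 for *Lmf2*, 0.08 for *Ncaph2*, 0.10 for *Sco2*, 0.24 for *Tymp* and 0.35 for *Odf3b*, each with an unadjusted p of 0.339 or above. On the far side of *Shank3*, *Acr* and *Rabl2*, 8.07 kb and 22.3 kb from it, had log2FC values of 0.00 (SE 0.29) and −0.10 (SE 0.12) in KO.

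Over the wider surroundings, 23 genes within 1 Mb of *Shank3* other than the 10 neighbours were tested. In KO 0 of them passed the adjusted threshold. An unadjusted p under 0.05 was seen for 3, 2 higher and 1 lower, against 0.822% of all genes tested. These were *Dennd6b*, *Klhdc7b* and *Cpne8*, a copine gene 927 kb beyond *Shank3*. *Cpne8* had 830, 693 and 754 normalized counts in WT, 742, 758 and 858 in HET and 898, 1025 and 922 in KO. The KO libraries of *Cpne8* lay above those of WT, as for 2.02% of genes, and of HET, as for 2.25%. Its log2FC was 0.32 (SE 0.11, unadjusted p = 0.014 and adjusted p = 0.999 from limma) in KO and 0.05 (SE 0.11) in HET. In HET only *Dennd6b* had an unadjusted p under 0.05 among the 23 (1.11% of all genes), and between KO and HET only *Cpne8* (1.31%). Counted with the neighbours and without *Shank3*, 3 of 33 genes within 1 Mb had an unadjusted p under 0.05 in KO. The counts were 1 of 15 within 0.25 Mb, 4 of 67 within 5 Mb and 8 of 509 on the rest of the chromosome. The share over all genes tested was 0.822%. The 3 windows around *Shank3* each count *Klhdc7b*, which met the filter only through its values in the mutant libraries, so their counts are no support for a local difference. The median absolute log2FC in KO was 0.090 within 0.25 Mb and within 1 Mb, 0.082 within 5 Mb and 0.076 on the rest of the chromosome. The signed median was 0.077 within 0.25 Mb, 0.063 within 1 Mb, 0.052 within 5 Mb and 0.0062 on the rest of the chromosome. The log2FC was positive for 12 of 15, 27 of 33, 49 of 67 and 266 of 509 genes, against 51.6% of all genes. In HET 6 of 15, 18 of 33, 32 of 67 and 238 of 509 genes were positive, against 49.3% of all genes. The windows are nested and their genes were measured in the same libraries, so these counts are not independent. They were not tested, nor was the part of the third libraries in them.

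**Figure D4:**
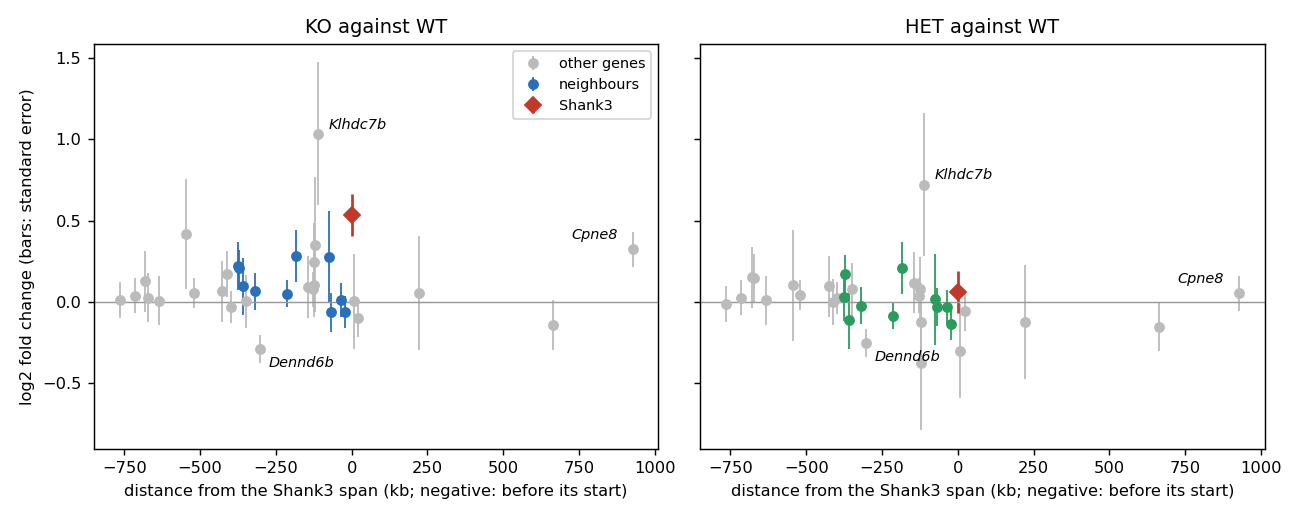
log2FC against WT with its standard error for the tested genes within 1 Mb of *Shank3*, by distance in kb from the *Shank3* span, in KO (left) and HET (right). The 10 neighbours (coloured) lie between −0.07 and 0.28 in KO, and 7 of the other genes lie outside that range, with *Klhdc7b* at 1.03 the highest and *Dennd6b* at −0.29 the lowest.

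From *Shank3* outward, the log2FC in KO was −0.06 for *Arsa*, 0.01 for *Mapk8ip2*, −0.07 for *Chkb*, 0.27 for *Cpt1b*, 0.28 for *Sbf1*, 0.05 for *Ppp6r2*, 0.06 for *Plxnb2*, 0.09 for *Mapk12*, 0.20 for *Hdac10* and 0.22 for *Tubgcp6*. Of the 10, the 3 nearest to *Shank3* were within 0.07 of 0, with SEs of 0.10 to 0.12. The next outward, *Cpt1b* and *Sbf1*, had the largest values of the 10, and no trend with distance was tested. *Shank3* itself was at 0.54 (SE 0.13, unadjusted p = 0.00195 and adjusted p = 0.999 from limma). The authors called *Shank3* higher in KO with DESeq2, traced this to exons outside the targeted part and saw the rise by qRT-PCR.

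To place the neighbours beside genes of the same function elsewhere in the genome, 41 paralogs and partners were followed, among them the other JNK scaffolds and kinases, the other carnitine palmitoyltransferases, plexins, subunits of protein phosphatase 6 and of the gamma-tubulin complex, and p38 kinases. *Mapk11* is in this list and in the segment. All 41 were tested, and 0 had an unadjusted p under 0.05 in KO, HET or KO against HET, where the shares over all genes were 0.822%, 1.11% and 1.31%, so that few or none would be counted in a list of this size at those shares. Their median log2FC was 0.025 in KO and 0.013 in HET.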

How the data were processed

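The authors estimated transcript abundance with Salmon 0.9.1 on GRCm38 with GC bias correction, collapsed it to genes with tximport and scaled it by size factors from DESeq2 1.19.11. The deposited signal is these normalized counts, with 1 column per mouse and 0 columns unused. Whole reads were not recovered, so no count test was run and the depth is unknown.

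Genotypes came from the labels. Normalized counts were transformed as log2(value + 1), genes with at least 10 in at least 3 libraries were kept, and genotype was fitted with limma 3.58.1 (trend) in R 4.3.3 over 9 libraries, with p adjusted after Benjamini-Hochberg (threshold 0.05). The slope was fitted over 2, 1 and 0 intact alleles. Exact permutation tests were two-sided. The script was tested on simulated data. Same-numbered HET and KO libraries deviated together from their genotype means (r = 0.52, 0.28 and 0.51 across genes), those of WT did not in every pair, and what the numbers stand for was not stated. With the replicate number as a block, 318 genes had an unadjusted p under 0.05 in KO against HET, and 186 without it.

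Spans, exon lengths and transcripts come from GENCODE (GRCm38), and level per kb divides by the union of exons. Named were the 10 neighbours, *Shank3*, the interspersed genes, and genes within 1 Mb or among the paralogs and partners with an unadjusted p under 0.05. *Acr* and *Rabl2* were added after their values were seen. The genes and lists were chosen with earlier results of these data known. Alternatives were other filters, pseudocounts, scalings and priors, a replicate block, 2 genotypes at a time and the omission of each library. Figures were drawn with matplotlib 3.10.9.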

Additional observations from a re-analysis of the deposited data

How the results depend on the processing

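The number of neighbours past an adjusted p of 0.05 was 0 under each alternative in all 4 comparisons, as was that of all genes. The number with an unadjusted p under 0.05 went from 0 to 1 with the replicate number as a block in KO, HET and the slope, and with quantile normalization or equal library sums in the slope. Under the block the gene in KO and HET was *Sbf1* (unadjusted p = 0.0118 and 0.0443 in limma), although same-numbered WT libraries did not deviate with those of KO or HET in every pair. The block changed no call between KO and HET. Leaving out each library gave counts from 0 to 1 in KO (1 without HET replicate 3), KO against HET (1 without HET replicate 1 or HET replicate 3) and the slope (1 without HET replicate 3), and 0 in HET. The number of all genes at an unadjusted p under 0.05, which sets the background, moved more. In KO it was 117, but 76 with a minimum of 50, 176 with a prior without trend, 310 under the block, 217 without HET replicate 3 and KO replicate 3, and 70 (without WT replicate 2) to 289 (without WT replicate 3) with a library left out. The corresponding range was 116 to 393 in HET (158 with all libraries, 365 under the block and 271 without those 2 libraries), 141 to 298 between KO and HET and 81 to 344 for the slope (138, 341 and 276).

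The median log2FC of the neighbours then ran from 0.048 to 0.15 in KO, −0.058 to 0.012 in HET, 0.069 to 0.15 between KO and HET and −0.081 to −0.023 per allele for the slope. Signs turned for single genes near 0. The ranges were, in KO, −0.042 to 0.25 for *Mapk12*, −0.036 to 0.15 for *Plxnb2* and −0.070 to 0.074 for *Mapk8ip2*. In HET they were −0.075 to 0.20 for *Shank3*, −0.098 to 0.12 for *Tubgcp6*, −0.25 to 0.042 for *Mapk12*, −0.10 to 0.033 for *Plxnb2*, −0.32 to 0.18 for *Cpt1b*, −0.10 to 0.081 for *Chkb*, −0.078 to 0.019 for *Mapk8ip2* and −0.014 to 0.12 for *Cpne8*. Between KO and HET they were −0.042 to 0.098 for *Hdac10*, −0.0097 to 0.17 for *Plxnb2*, −0.049 to 0.25 for *Sbf1*, −0.15 to 0.039 for *Chkb*, −0.036 to 0.11 for *Mapk8ip2*, −0.022 to 0.13 for *Arsa*, −0.10 to 0.010 for *Dennd6b* and −0.0095 to 0.53 for *Klhdc7b*. With quantile normalization *Cpt1b* in HET was at −0.0086. Without HET replicate 3 and KO replicate 3 the log2FC was −0.070 for *Mapk8ip2* in KO, −0.098 for *Tubgcp6*, 0.081 for *Chkb* and −0.014 for *Cpne8* in HET, and −0.00013 for *Arsa* and −0.017 for *Klhdc7b* between KO and HET. These fits held fewer libraries. The cause was otherwise not tested. A test with edgeR was planned only if whole reads were recovered from the values, which they were not, so it was not run.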
